A study of Rattus norvegicus with 20 samples.

Results

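The genes described here code for the proteasome, and they were chosen by name. Every probe set with 1 gene symbol starting with Psma, Psmb, Psmc, Psmd or Psme was taken, and where a gene had several, the one with the highest mean signal was used. This gave 38 of 10411 genes with 1 symbol on the array, from 41 probe sets, and all 38 genes passed the filter on low signals. They comprised 13 subunits of the core particle, 14 subunits of the regulatory cap, 5 subunits of the immunoproteasome and its activator, and 6 others. Of these 6, Psmc3ip and Psme3ip1 match the name only and code for no proteasome subunit, so 36 of the 38 are subunits, assembly chaperones or activators. Another 6 probe sets listed several symbols, one of them starting like a member, and were not named, so Psmb6, the constitutive partner of Psmb9, has no value here.

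Gene expression was measured with Affymetrix arrays in the white fat of Wistar rats, males of an outbred strain. The rats were 6 weeks old when the experiment began, ate a purified diet, and received either their usual amount (control) or 5%, 10%, 20% or 30% less food (calorie restriction, CR), for 1 week or 1 month, and all groups were fasted for 16 h before the tissue was taken. Each of the 10 groups was 1 pool of RNA from 5 rats, labelled and divided over 2 chips, so the 2 chips are technical repeats and no spread between rats was measured. No gene was altered in any group, and the treatments differed in the amount of food and its duration, and with the duration in age at sampling.

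The proteasome is the chamber in which cells cut up proteins tagged with ubiquitin. Rings of alpha and beta subunits form the core, 3 of the beta subunits carry the cutting sites, and a cap of ATPases and non-ATPases binds, unfolds and feeds in the substrate. In lymphocytes, in other immune cells and in cells exposed to interferon gamma, the cutting subunits Psmb6, Psmb7 and Psmb5 are replaced in new particles by Psmb9, Psmb10 and Psmb8, and the Psme1 and Psme2 ring can bind in place of the cap, which yields peptides suited to class I antigen presentation.

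The promoters of the inducible catalytic subunits and of the constitutive partners with a value are shown first, because Psmb8, Psmb9 and Psmb10 had the largest slopes below 0 of the members and Psmb5 and Psmb7 are the subunits that Psmb8 and Psmb10 replace. The sequences are from RefSeq on build GRCr8, 5′ to 3′ on the gene's own strand, and cover the 150 bases before the annotated gene start. That of Psmb8 runs 6 bases further to complete a match that crosses the start. Capitals mark matches, on either strand, to an interferon regulatory factor element (GAAANNGAA) or to a gamma-activated site (TTCNNNGAA). The windows lie at chr20:4657026-4657181 (Psmb8, minus strand), chr20:4668850-4668999 (Psmb9, plus strand), chr19:50743293-50743442 (Psmb10, minus strand), chr15:32047380-32047529 (Psmb5, minus strand) and chr3:42827471-42827620 (Psmb7, minus strand).
Psmb8: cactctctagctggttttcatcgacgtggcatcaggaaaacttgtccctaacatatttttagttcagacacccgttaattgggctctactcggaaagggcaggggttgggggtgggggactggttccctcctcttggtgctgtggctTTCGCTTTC
Psmb9: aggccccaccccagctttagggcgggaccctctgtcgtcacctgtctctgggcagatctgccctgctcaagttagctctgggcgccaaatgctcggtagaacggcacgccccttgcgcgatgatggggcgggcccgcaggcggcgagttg
Psmb10: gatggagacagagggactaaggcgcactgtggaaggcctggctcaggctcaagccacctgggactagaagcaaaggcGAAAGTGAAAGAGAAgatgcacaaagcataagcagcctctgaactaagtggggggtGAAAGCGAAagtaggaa
Psmb5: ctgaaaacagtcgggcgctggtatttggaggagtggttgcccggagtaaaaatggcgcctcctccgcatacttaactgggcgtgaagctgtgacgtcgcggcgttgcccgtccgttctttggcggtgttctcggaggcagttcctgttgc
Psmb7: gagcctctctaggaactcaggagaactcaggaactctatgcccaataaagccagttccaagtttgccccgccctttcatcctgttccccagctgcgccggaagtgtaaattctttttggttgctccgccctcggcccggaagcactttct

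The whole 300-base windows, 250 bases before the start and 50 after it, were searched for 4 motifs on both strands, and matches to different motifs may overlap. Windows were held for 36 of the 38 genes. The interferon regulatory factor element was found in 3 of the 5 immunoproteasome genes (Psmb8, Psmb10 and Psme2), in 3 of 12 core genes and in 2 of 13 cap genes, against 9.5% of 27457 promoters. Psmb10 held 3 matches, beginning 73, 67 and 17 bases before the start, and Psmb9 held none. The gamma-activated site was found in Psmb8, outside the printed stretch, in no core gene and in 2 cap genes, against 8.68% of all promoters. An antioxidant response element (TGACNNNGC) was found in 3 core genes, 2 cap genes and none of the 5 immunoproteasome genes, against 12.2% of all promoters, and CCAAT was found in 9 core, 5 cap and 2 immunoproteasome genes, against 37.7%. These are matches of letters only, and binding was not measured. In the same annotation the protein-coding genes Tap2, Psmb8, Tap1 and Psmb9 follow one another on chromosome 20, and Psme1 and Psme2 are separated by 1 gene on chromosome 15.

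Some properties of the pools touch the results below. Marker genes of the exocrine pancreas, a gland that can be taken with visceral fat, had a summed signal of 54900 in the 1 week control pool and 1410 in the 30% CR pool at 1 week, against 111 to 153 in the other 8 pools. Of the adipocyte markers, Fabp4 and Cfd had log2 signals of at least 12.1 in every pool, and the summed adipocyte signal was 13000 to 13800 in the control pools and 14300 to 19200 in the restricted ones. The list of T and NK cell markers (16 of 17 genes on the array) had a summed signal of 2090 to 2140 in the control pools and 268 to 2120 in the restricted pools. The macrophage and dendritic cell list (11 of 16 genes on the array) had 4780 to 6760 in the control and 3260 to 4550 in the restricted pools. The B cell list had only 3 of 12 genes on the array, with 3150 to 3230 in the control and 558 to 2800 in the restricted pools. Cd8a had the lowest pool value of the T and NK list, 0.45 on the log2 scale. Signals of the 2 durations were not on one scale, since the chips at 1 week had trimmed mean signals of 77.2 (replicate 1) and 111 (replicate 2), while those at 1 month had 97.7 and 97.5.

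The first question was how the catalytic subunits of the immunoproteasome differed by the level and duration of restriction. Psmb9, Psmb8 and Psmb10 had lower signals in the restricted pools than in the control pool of the same duration, with 1 exception (Psmb8 in 5% CR at 1 month), and their lowest pools stood at 29.8% to 32.3% of control. Values are geometric means of the signals of the 2 chips of a pool.

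Psmb9, the inducible beta subunit coded next to Tap1, had signals at 1 week of 214 in the control pool and 166, 125, 122 and 80.6 in the 5%, 10%, 20% and 30% CR pools. At 1 month the signals were 291 in the control pool and 256, 94, 98.1 and 135 in the same order. The 1 week series was lowest at 30%, while the 1 month series was lowest at 10% and 20%, and within each duration no restricted pool reached its control. The dose slope, the change of log2 signal for each 10% of restriction over both durations, was -0.41 ± 0.11 (SE, 10 pools), with an adjusted p of 0.0405 in limma. Psmb9 thus fell with the dose, and it was the only one of the 38 genes called, where 9.40% of all 9520 probe sets were called in either direction and 3.69% as falling, so the share of members called was below that of all. The fitted difference at 30% restriction was 2.35-fold.

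Psmb8, which replaces Psmb5, had signals at 1 week of 276 in the control pool and 173, 136, 144 and 89.1 from 5% to 30% CR. At 1 month it had 257 in the control pool and 260, 85.1, 84.9 and 156. The 5% pool at 1 month stood at its control, and every other restricted pool was below it. The dose slope was -0.39 ± 0.13 (SE), with an adjusted p of 0.0868 in limma. Psmb10, which replaces Psmb7, had signals at 1 week of 211 in the control pool and 138, 112, 109 and 80.7 in the restricted pools. At 1 month the values were 238 in the control pool and 190, 70.7, 77 and 129. All 8 restricted pools were below their control, and the dose slope was -0.35 ± 0.13 (SE), with an adjusted p of 0.0918.

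**Figure D1:**
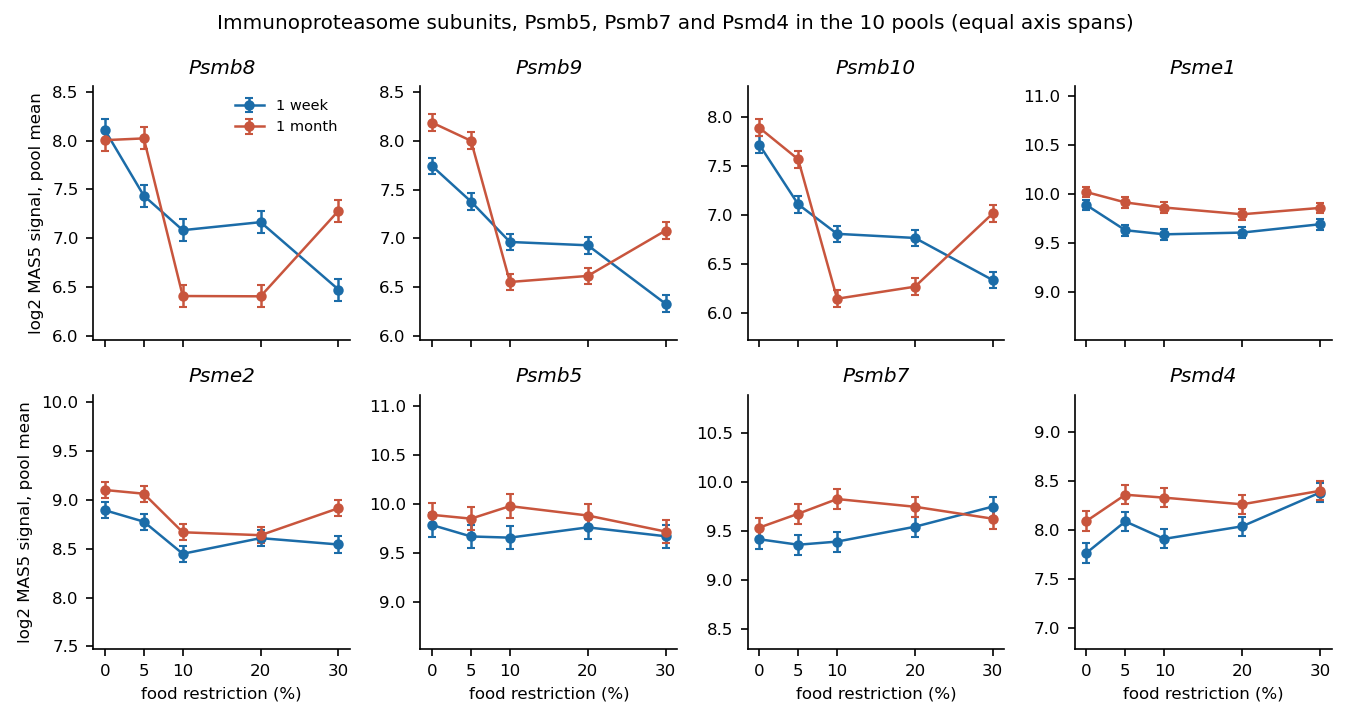
Log2 signal (vertical axis, mean of the 2 chips of a pool, bars show the technical SD of a pool mean) against food restriction in percent for 8 genes at 1 week and 1 month. Each vertical axis spans the same number of log2 units. Psmb8, Psmb9 and Psmb10 share a course at each duration, lowest at 30% at 1 week and at 10% and 20% at 1 month, while Psmb5 and Psme1 stayed within 0.3 of their control in each pool.

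Against the control pools, which all levels share, the 3 catalytic subunits were tested level by level over both durations. At 5% CR none of the 38 genes was called by limma (0.284% of all probe sets, and 1 of the 38 genes, Psmd4, had an unadjusted p below 0.05, against 8.27% of all). At 10% CR 4 members were called, all lower, where 9.13% of all probe sets were called. These were Psmb10 (-1.33 ± 0.30 log2, SE, adjusted p = 0.0312), Psmb8 (-1.31 ± 0.35, adjusted p = 0.0498), Psmb9 (-1.20 ± 0.27, adjusted p = 0.0329) and Psme2 (-0.44 ± 0.11, adjusted p = 0.0384). At 20% CR 3 members were called, all lower, where 11.2% of all probe sets were called: Psmb10 (-1.29), Psmb8 (-1.27) and Psmb9 (-1.19), with adjusted p-values of 0.0294, 0.0487 and 0.0298 in limma. At 30% CR 3 members were called, where 12.3% of all were: Psmb9 (-1.26 ± 0.27, adjusted p = 0.0209) and Psmb10 (-1.13 ± 0.30, adjusted p = 0.0394) fell, and Psmd4 of the cap rose (0.46 ± 0.12, adjusted p = 0.0345). The share of members called was close to or below the background in each of these fits, and the members called lower were immunoproteasome genes. Without the control pool of either duration, or without the control and 30% pools at 1 week, no member was called at any level. The calls at 10% and 20% CR were likewise lost without the 1 month pool of that level, and those at 30% CR without its 1 week pool, while 5 members were called at 30% CR without its 1 month pool and 1 at 20% CR without its 1 week pool. From the first chips alone 2 members were called at 10% CR and 1 at 30% CR, and from the second chips alone 1 was called at 10% CR.

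The same genes were counted pool by pool, by a change of at least 1.5-fold from the control of that duration with both chips in 1 direction, which has no test. At 1 week the members below control were Psmb8 and Psmb10 in the 5% pool (8.96% of all probe sets changed in either direction), and Psmb8, Psmb9 and Psmb10 in the 10% pool (14.5%) and in the 20% pool (15.8%). In the 30% pool at 1 week these 3 and Psmd5 were below control and Psmd4 was above it (21.1%). At 1 month no member had changed in the 5% pool (5.82%), and Psmb8, Psmb9 and Psmb10 alone were below control in the 10% pool (20.0%), the 20% pool (16.5%) and the 30% pool (13.5%). The median of the 3 genes was 65.5%, 53.1%, 52.1% and 37.7% of control from 5% to 30% CR at 1 week. At 1 month it was 87.9%, 32.3%, 33.1% and 54.5%.

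The course of these 3 genes over the pools ran beside that of lymphocyte markers, though not in every pool. The mean log2 signal of 7 lymphocyte genes (Cd247, Cd3d, Cd3e, Cd3g, Cd5, Cd79b and Lck) was 7.92 in the control pool and 7.09, 5.68, 6.35 and 3.2 from 5% to 30% CR at 1 week. At 1 month it was 7.89 in the control pool and 7.89, 3.45, 3.4 and 6.91. The lowest pool signals were 1.49 for Cd79b, 2.83 for Cd3d, 5.42 for Cd3e, 7 for Cd247, 9.41 for Cd5 and 14.7 for Cd3g. These lie under the filter signal of 22.8, and only Lck, at 33.9, stayed above it. The size of the score's fall in its lowest pools, and so the fits that use the score, rests in part on signals near the floor. None of the 7 genes was called on the dose slope. The lowest pools of this score were the lowest pools of Psmb8, Psmb9 and Psmb10, and the 5% pool at 1 month stood at its control for the score and for Psmb8. In pooled tissue RNA, fewer lymphocytes and less RNA per cell cannot be told apart. With the score as a covariate in limma, the dose slope of Psmb9 was -0.18 ± 0.056 (SE, adjusted p = 0.125), that of Psmb8 was -0.095 ± 0.055 (adjusted p = 0.444) and that of Psmb10 was -0.093 ± 0.067 (adjusted p = 0.549). No member was then called on the dose slope, where 204 of 9520 probe sets were, or at 10%, 20% or 30% CR. With the mean of the macrophage and dendritic cell list in its place, the slope of Psmb9 was -0.25 (adjusted p = 0.313), and 79 of 9520 probe sets were called. The part of lymphocytes or macrophages in the slopes was not tested beyond these fits.

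**Figure D2:**
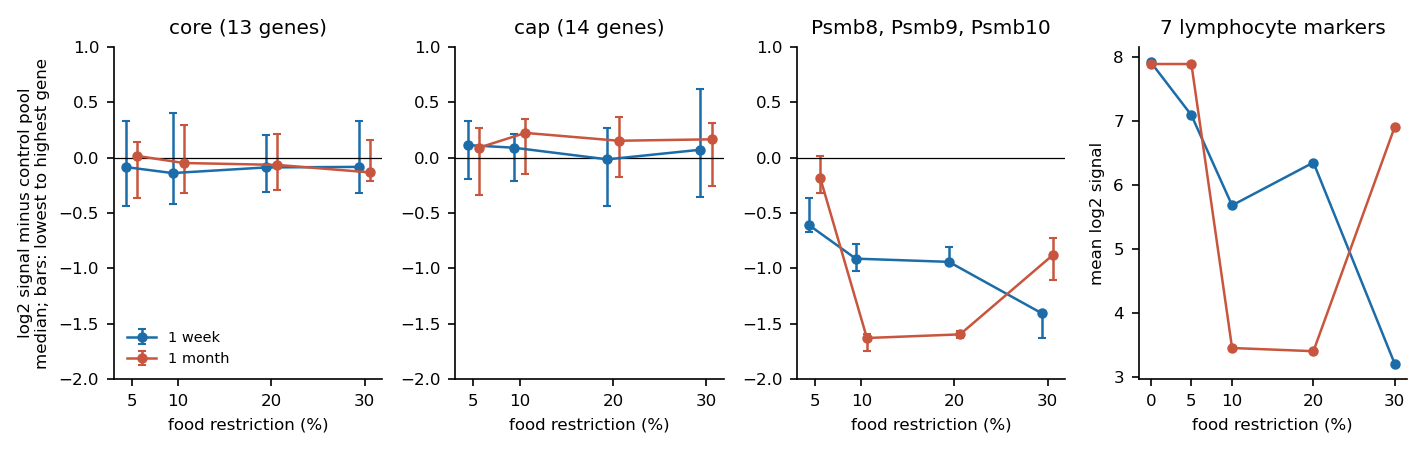
First 3 panels: change of log2 signal from the control pool of the same duration (points are medians over the genes of a class, bars run from the lowest to the highest gene) against restriction in percent. Last panel: mean log2 signal of 7 lymphocyte markers in the 10 pools. Core and cap medians lie between -0.14 and 0.22 in every pool, and the median of Psmb8, Psmb9 and Psmb10 reaches -1.63 in the pools where the markers are low.

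Other settings bore on Psmb9 as follows. Without the control and 30% pools at 1 week, which held the pancreas signal, its slope was -0.38 ± 0.15 (adjusted p = 0.309). Without the 10% and 20% pools at 1 month, the 2 lowest for lymphocyte markers at that duration, limma called Psmb9 (-0.40 ± 0.042, adjusted p = 0.00117), Psmb8 (-0.36 ± 0.063, adjusted p = 0.00545) and Psmb10 (-0.33 ± 0.054, adjusted p = 0.00394). Both pools stood below the 30% pool for these genes at that duration, so leaving them out favoured a straight slope. This setting was added after the data were seen, and 1687 of 9520 probe sets were called in it. The direction was the same in each of these fits. Leaving out 1 pool at a time, the call of Psmb9 was lost in 7 of 10 cases and was kept without the 10% pool of either duration or the 30% pool at 1 month.

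**Figure D3:**
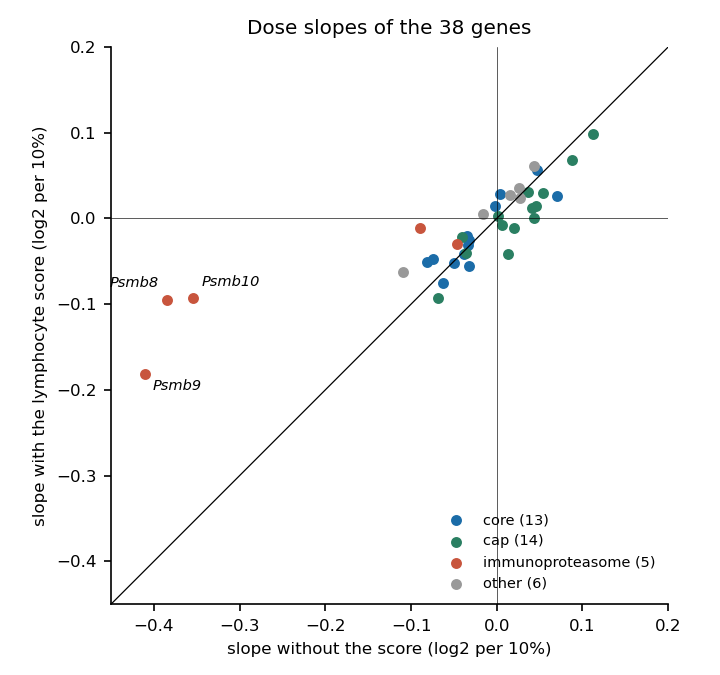
Dose slopes of the 38 genes in log2 signal per 10% restriction, without (horizontal axis) and with (vertical axis) the lymphocyte score in the fit. Each point is a gene, and the diagonal marks equal slopes. Psmb8, Psmb9 and Psmb10 lie far above the diagonal, at -0.095, -0.18 and -0.093 with the score, while most core and cap genes lie near it.

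The ring-shaped activator of the immunoproteasome differed less. Psme1 had signals at 1 week of 948 in the control pool and 794, 771, 780 and 828 in the restricted pools. At 1 month it had 1040 in the control pool and 966, 932, 888 and 929. All 8 restricted pools were below their control, between 81.3% and 92.9% of it, and no dose order was seen. Its slope was -0.046 ± 0.032 (SE, adjusted p = 0.345), and the 8 restricted against the 2 control pools differed by -0.21 ± 0.069 log2 (adjusted p = 0.0847 in limma). Psme2 had signals at 1 week of 475 in the control pool and 438, 349, 390 and 373, and at 1 month of 549 in the control pool and 534, 406, 398 and 482. The restricted pools stood at 72.6% to 97.4% of their control, and the slope was -0.090 ± 0.047 (adjusted p = 0.222). Psme1 and Psme2 thus stood on the same side as the catalytic subunits with smaller differences. With the signals as deposited, Psme2 alone of this pair passed the threshold, at 10% CR. That call was lost with median centring and from the chips of either replicate number alone. With quantile normalization both were called at 10% and 20% CR, and Psme1 also for restricted against control. The difference in slope between Psme1 or Psme2 and the catalytic subunits was not tested.

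The constitutive partners were set beside the inducible subunits in the same pools. The RNA was of whole tissue, so whether both came from the same cells was not resolved. Psmb5 had signals of 883 in the 1 week control pool and 814, 807, 868 and 815 in the restricted pools, and 949, 923, 1010, 944 and 843 from control to 30% CR at 1 month. Its slope was -0.032 ± 0.028 (SE, adjusted p = 0.476). Psmb7 had 683 in the 1 week control pool and 657, 672, 747 and 861 in the restricted pools, and 742, 819, 908, 860 and 790 at 1 month. The 30% pool was the highest at 1 week and the 10% pool the highest at 1 month, and the slope was 0.070 ± 0.035 (adjusted p = 0.208).

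The slope of Psmb8 minus that of Psmb5 was -0.35 log2 per 10% restriction. In an exact two-sided permutation test of the restriction levels within each duration (14400 arrangements of 10 pools) p was 0.0938, and 7 of 8 restricted pools had a lower Psmb8 to Psmb5 ratio than their control. The slope of Psmb10 minus that of Psmb7 was -0.42, p was 0.0545 in the exact permutation test, and 8 of 8 restricted pools had the lower ratio. With Benjamini-Hochberg adjustment over the 2 pairs both values were 0.0938, so neither pair passed the threshold with all pools. With the lymphocyte score as a covariate the slope differences were -0.040 and -0.12. Without the 30% pool at 1 month the adjusted permutation p was 0.00521 for both pairs, with differences of -0.57 and -0.64. Without the 10% pool at 1 month it was 0.033 for Psmb8 and Psmb5 and 0.0278 for Psmb10 and Psmb7. Leaving out any other single pool gave adjusted permutation p-values of 0.107 to 0.262, and without the control and 30% pools at 1 week the value was 0.401 for both pairs.

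In the core as a whole, no gene was called on the dose slope, and the median slope of the 13 genes was -0.034, against -0.011 over all probe sets tested. The alpha subunits form the outer rings that gate the chamber. Of these, 6 of 7 had slopes below 0, with the largest for Psma5 (-0.081 ± 0.029 SE, adjusted p = 0.0955) and Psma1 (-0.074 ± 0.039, adjusted p = 0.229). Psma4 (-0.063), Psma2 (-0.038), Psma3 (-0.034) and Psma7 (-0.032) were on the same side, and Psma6 (0.047) on the other. Log2 signals of Psma5 were 8.70 in the control pool and 8.60, 8.44, 8.47 and 8.41 in the restricted pools at 1 week, and 8.78, 8.73, 8.55, 8.52 and 8.56 at 1 month. All restricted pools were below their control by less than 0.3. Among the beta subunits, Psmb2 had a slope of -0.050 ± 0.042 (adjusted p = 0.442), Psmb3 of -0.035, Psmb1 of -0.0022 and Psmb4 of 0.0045. With each chip centred on its median, which moved the median slope of all probe sets to 0.012, the core median was -0.012 and 9 of 13 slopes were below 0, in place of 10.

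The cap genes lay mostly on the other side of 0. The median slope of the 14 genes was 0.028, with 11 above 0, and none was called. All 5 ATPases among the members, part of the ring that unfolds the substrate, had slopes above 0. Psmc6 of this ring was not among the members. The largest was that of Psmc5 (0.088 ± 0.028 SE, adjusted p = 0.0706), followed by Psmc1 (0.046), Psmc2 (0.043), Psmc3 (0.0059) and Psmc4 (0.0006). The slopes of Psmc3 and Psmc4 were within their SE of 0. Log2 signals of Psmc5 were 7.98 in the control pool and 8.12, 8.20, 8.15 and 8.30 at 1 week, and 8.29, 8.43, 8.53, 8.56 and 8.60 at 1 month. Each restricted pool stood above its control, and the 1 month pools followed the order of the dose.

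Psmd4, a cap subunit that binds ubiquitin chains, had the largest slope above 0 of the members, at 0.11 ± 0.039 (SE, adjusted p = 0.0904 in limma). Its signals were 218 in the control pool and 272, 240, 263 and 334 in the restricted pools at 1 week. At 1 month they were 273 in the control pool and 328, 322, 307 and 338. All 8 restricted pools were above their control, and the 30% pools were the highest at both durations. Without the control and 30% pools at 1 week, which held the pancreas signal, the slope of Psmd4 was 0.05. Its call at 30% CR was lost from the chips of either replicate number alone. Of the other non-ATPases, Psmd1, the large scaffold of the base, had -0.069 ± 0.043 (adjusted p = 0.298), Psmd3 -0.040 and Psmd13 -0.036. Psmd2 had 0.054, Psmd7 0.041, Psmd11 0.037, Psmd8 0.020 and Psmd6 0.013. A second probe set of Psmd11 had a slope of 0.098 (adjusted p = 0.105). When the lymphocyte score was added, the cap median was 0.002 and 8 of 14 slopes were above 0, and with median centring it was 0.052 with 11 above 0.

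**Figure D4:**
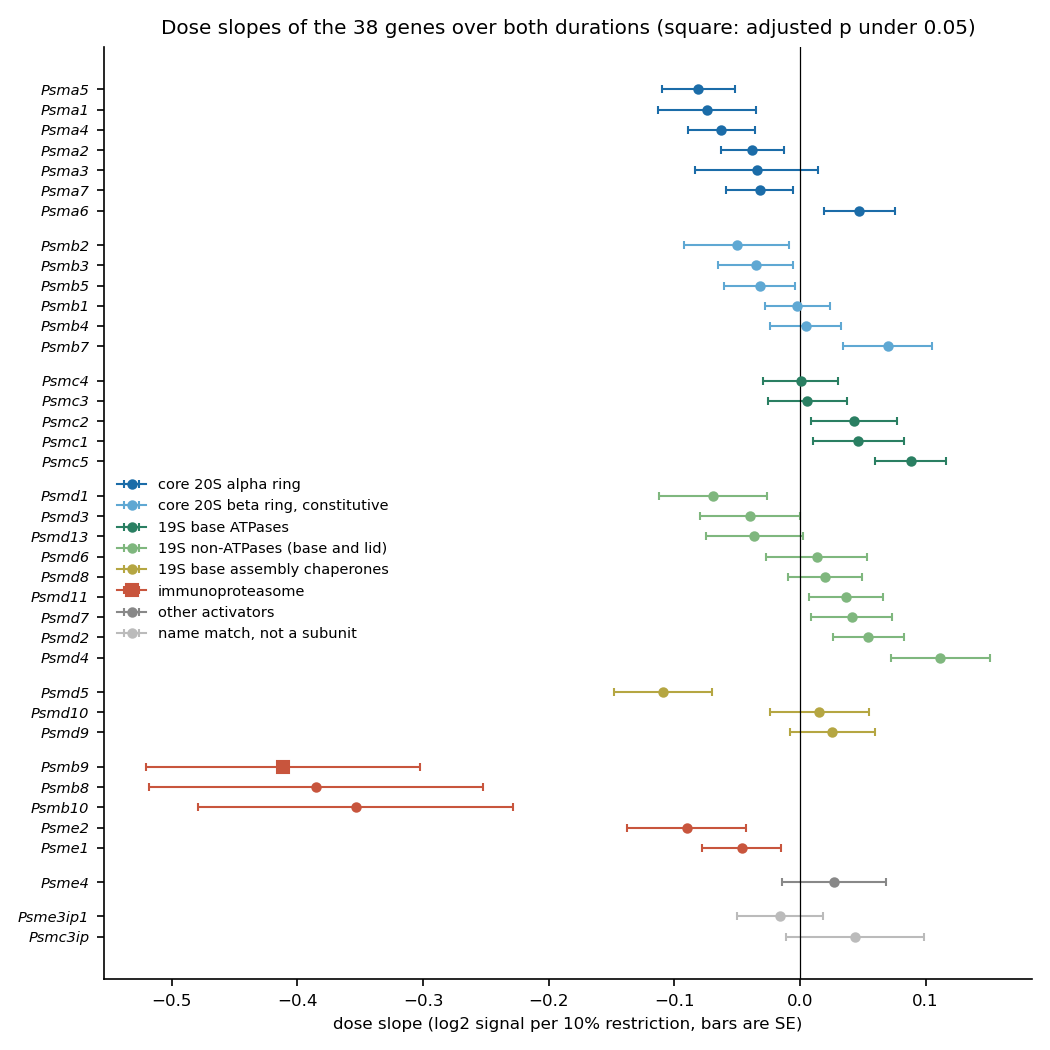
Dose slope over both durations (horizontal axis, log2 signal per 10% restriction, bars are SE) of the 38 genes, grouped by their place in the proteasome. The square marks Psmb9, the one gene with an adjusted p under the threshold. Slopes of core and cap genes lie between -0.081 and 0.11, and those of Psmb8, Psmb9 and Psmb10 between -0.41 and -0.35.

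The remaining members were not called on the slope. Psmd5, a chaperone that helps assemble the base and is not part of the finished particle, had a slope of -0.11 ± 0.039 (SE, adjusted p = 0.0937 in limma). Its log2 signals were 7.47 in the control pool and 7.26, 7.12, 7.14 and 6.86 at 1 week, and 7.34, 7.18, 7.05, 7.11 and 7.14 at 1 month, and all restricted pools were below their control. Without the control and 30% pools at 1 week, which held the pancreas signal, the slope of Psmd5 was -0.05. The 2 other base chaperones, Psmd9 (0.026) and Psmd10 (0.015), had slopes within their SE of 0. Psme4, a single-chain activator, had 0.027, and its 2 other probe sets -0.039 and -0.006. The name matches Psmc3ip and Psme3ip1 had 0.044 and -0.016.

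Duration was the next question. The dose slope at 1 week called no member (0.294% of all probe sets, and 6 members had an unadjusted p below 0.05 in limma, against 20.1% of all), nor did the slope at 1 month (0.126% of all, and 2 members unadjusted against 13.2% of all). The catalytic subunits had 1 week slopes of -0.45 ± 0.20 (SE, Psmb8), -0.42 ± 0.16 (Psmb9) and -0.39 ± 0.19 (Psmb10). At 1 month the slopes were -0.32 ± 0.20, -0.40 ± 0.16 and -0.32 ± 0.19 in the same order, with the minimum at the middle levels. The difference of the slopes between durations called no probe set at all (0% of all) in limma, and 1 member, Psme4 (-0.18, unadjusted p = 0.0228), had an unadjusted p below 0.05, against 2.96% of all. For Psmb8, Psmb9 and Psmb10 these differences were 0.12, 0.017 and 0.072, each smaller than its SE. The 8 restricted against the 2 control pools called no member (5.93% of all), with 13 members unadjusted against 29.5% of all, and differences of -1.02 ± 0.36 (Psmb8), -0.98 ± 0.33 (Psmb9) and -1.05 ± 0.31 (Psmb10) with adjusted p-values of 0.0983, 0.0892 and 0.0644.

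Between the durations themselves, 34 of the 38 genes had a higher log2 signal at 1 month than at 1 week at equal restriction, with a median difference of 0.17, against 0.068 over all probe sets. Psmc5 (0.33 ± 0.060 SE, adjusted p = 0.0255), Psmb1 (0.27 ± 0.055, adjusted p = 0.0333) and Psma2 (0.25 ± 0.060, adjusted p = 0.0478) were called by limma, all higher, where 4.77% of all probe sets were called. The catalytic subunits of the immunoproteasome were not, with 0.22 for Psmb9, 0.031 for Psmb10 and -0.029 for Psmb8. The chips of the 2 durations were scaled apart, and the count and the direction depended on which chips were used. From the first chips alone 38 of 38 genes were higher at 1 month (median 0.38, against 0.33 over all probe sets) and 29 were called, all higher, where 45% of all were called. From the second chips alone 27 of 38 were lower at 1 month (median -0.077, against -0.195) and 3 were called, all lower (Psmd1, Psmd5 and Psme4), where 16.1% of all were. Psmd5 was thus called with opposite signs, at 0.30 (adjusted p = 0.0445 in limma) and -0.31 (adjusted p = 0.048). With each chip centred on its median, 30 of 38 genes were higher at 1 month, the member median was 0.13 against 0.027, and none of the 38 was called, nor was any with that centring from the first chips alone (24 of 38 higher) or the second alone (33 of 38 higher).

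The rest of the pathway was described by lists, beside a share of 9.40% of all probe sets called on the dose slope. Of 14 tested assembly, inhibitor and associated factors, Ecpas, a scaffold that binds the proteasome, rose (slope 0.17 ± 0.039 SE, adjusted p = 0.0262) and Ubqln1, a ubiquitin shuttle, fell (-0.13 ± 0.028, adjusted p = 0.021), and the list median was 0 against -0.011 over all probe sets. The maturation factor Pomp (-0.022) and the inhibitor Psmf1 (-0.003) were not called. Of 19 genes for ubiquitin, its activation and the p97 complex, Nsfl1c, a cofactor of p97, rose (0.18, adjusted p = 0.0487), and the median was -0.037. Among 9 regulators of proteasome genes and oxidative stress targets, Gclm, a subunit of the enzyme that makes glutathione precursor, rose (0.22, adjusted p = 0.0314), and the regulators Nfe2l1 (0.11, adjusted p = 0.0812) and Nfe2l2 (0.17, adjusted p = 0.0795) were not called. Hmox1, which degrades heme, had a slope of -0.32 ± 0.093 (SE, adjusted p = 0.0508) and fell in the restricted against the control pools (-0.99, adjusted p = 0.0242).

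In class I antigen processing, 12 genes were tested and Calr, a chaperone of class I molecules, fell (-0.13, adjusted p = 0.0211), with a list median of -0.041. Tap1 and Tap2, both subunits of the peptide transporter that lie beside Psmb8 and Psmb9, had slopes of -0.23 ± 0.090 (SE, adjusted p = 0.113) and -0.094 ± 0.057 (adjusted p = 0.287), and B2m, the light chain of class I, had 0.019. Against the control pools the 8 restricted pools differed by -0.80 for Tap1 (adjusted p = 0.0372 in limma), which thus fell, and by -0.34 for Tap2 (adjusted p = 0.131). Of 16 interferon genes, Stat2 fell (-0.17, adjusted p = 0.0455) and Oas1a rose (0.24, adjusted p = 0.0306). The list median was -0.056, with 12 slopes below 0. Larger slopes were those of Ubd (-0.764), Irf8 (-0.658) and Mx1 (-0.405), none of them called. Irf1, a regulator of the inducible subunits, had -0.23 ± 0.077 (adjusted p = 0.0775). Tap1, Tap2, B2m, Irf1, Hmox1, Pomp, Psmf1, Nfe2l1 and Nfe2l2 were named for their roles after their values were seen. The calls of genes in these lists were not followed in the alternative runs. Without the control and 30% pools at 1 week, 15 of 9520 probe sets were called on the slope, and 204 with the lymphocyte score.

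The genes most like Psmb9 over the 10 pools, after the mean of each duration was removed, were Csk (Pearson r = 0.995), LOC100910973 (0.991), Arf6 (0.989), Cotl1 (0.988) and Sri (0.987), out of 7112 genes. Psmb10 (0.98) ranked 29th and Psmb8 (0.979) 33rd. Tap2 (0.926) ranked 338th, Psme2 (0.906) 438th, Tap1 (0.867) 644th and Psme1 (0.656) 1540th, and r was 0.029 for Psmb5 and -0.761 for Psmb7. Within each pool all genes share the same chips, scale and tissue composition, so these values describe the pattern only.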

How the data were processed

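Adipose RNA of 10 pools was measured on 20 chips. The intensity values, deposited by the authors on a linear scale, were MAS5 signals, as named in the submitters' processing notes. Signals under 1 were set to 1 and log2 was taken. Of 15866 probe sets without controls, the 9520 whose mean log2 signal reached the 40th percentile (22.8 as a signal) were tested. The mean of a pool's chips was used, and a model with duration as a term was fitted in limma 3.58.1 (R 4.3.3, eBayes, trend), two-sided, with Benjamini-Hochberg adjustment over all tested probe sets and a threshold of 0.05. P-values therefore test a slope or a difference against the departures of single pools from the fitted values, and not against the spread between rats. In the fits by level, with 4 residual degrees of freedom, these departures are disagreements between the 2 durations. Gene symbols came from the platform annotation, updated through 12748 matched gene IDs. The fits were tested on simulated data. The technical SD of a pool mean had a median of 0.0762 log2 over the members and 0.121 over all tested. Chips of 1 replicate number shared a scale within a duration. Beyond that, chip differences between pools correlated by -0.0866 to 0.225, so replicate numbers did not otherwise pair pools. The members, gene lists and named genes (all immunoproteasome genes and their partners, the largest slopes of each class, and called genes) were chosen with earlier results of these data known. The number of arrays limits the precision. Alternatives were other normalizations, filters, covariates and left-out chips or pools.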

Additional observations from a re-analysis of the deposited data

Results flagged for a closer look

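Psmc1, an ATPase of the cap, stood on opposite sides of its control at the 2 durations. At 1 week all 4 restricted pools were below the control pool, by -0.189 to -0.005 log2 (mean -0.099), and at 1 month all 4 were above it, by 0.208 to 0.372 (mean 0.289). The mean changes differed by 0.387. Psmd13, a non-ATPase of the cap, showed the reverse, with all 4 restricted pools above control at 1 week (0.021 to 0.332, mean 0.135) and all 4 below it at 1 month (-0.253 to -0.147, mean -0.186), a difference of -0.321. Each set of 4 shares 1 control pool, that of 1 week being the pool with the highest pancreas signal, and neither difference was tested in that form. The dose slopes of Psmc1 were 0.029 at 1 week and 0.064 at 1 month (difference 0.035, unadjusted p = 0.653 in limma), and those of Psmd13 were -0.014 and -0.058 (difference -0.044, unadjusted p = 0.595).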

How the results depend on the processing

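The slopes of the 5 immunoproteasome genes, Psmb5 and Psmb7 had the same sign in every alternative run. Leaving out 1 pool or the chips of 1 replicate number in turn, the members called ranged from 0 to 5 on the dose slope (4 without the 10% and 5 without the 30% pool at 1 month), 0 to 6 for restricted against control, 0 to 4 at 10% CR, 0 to 3 at 20% CR, 0 to 5 at 30% CR and 0 to 29 between durations (29, all higher, without the second chips, and 3, all lower, without the first). The immunoproteasome median slope then lay between -0.524 and -0.276 and the slope of Psmb8 minus Psmb5 between -0.567 and -0.299, and of Psmb10 minus Psmb7 between -0.641 and -0.336. Of all 9520 probe sets, 1921 were called on the dose slope without the 10% pool at 1 month and 1641 without the 30% pool at 1 month. Without the control and 30% pools at 1 week, and likewise with no intensity trend, 0 members were called on the dose slope, at 10%, 20% and 30% CR and between durations. On the slope 15 and 683 of 9520 probe sets were called in these fits. With the lymphocyte score these member counts were 0 save between durations, and the immunoproteasome median was -0.093. On the slope 204 of 9520 probe sets were then called. With no filter 0 members were called on the slope, where 650 of 15866 probe sets were, and 1 between durations. With the macrophage score, added after seeing the data, 0 were called on the slope, where 79 of 9520 probe sets were (Psmb9 -0.25, adjusted p = 0.313). Without the 10% and 20% pools at 1 month, also added later, 3 were called, where 1687 of 9520 probe sets were, and the pair differences were -0.324 and -0.404. The differences of Psmc5, Psmb1 and Psma2 between durations stayed above 0 in every alternative run that fitted them. From the second chips alone they were 0.116, 0.097 and 0.008, and none of these was called. Median centring called 0 between durations, also from the first or the second chips alone (both added later), and quantile normalization 0 between durations, 2 for restricted against control and 5 at 20% CR. With single chips and the pool as a random replicate block, 6 members were called on the slope, where 1729 of 9520 probe sets were. In that fit 2 were called on the 1 week slope, 7 for restricted against control, 6 at 20% CR and 7 at 30% CR. Psmb8 and Psmb10 were among those called on the slope (adjusted p = 0.0131 and 0.0141 in limma). The comparison between durations could not be fitted with that block. A fold minimum of 2 left 0, 1, 0 and 3 members from 5% to 30% CR at 1 week and 1 in the 30% pool at 1 month, and log2 of the signal plus 16 left 1 in the 5% and 3 in the 30% pool at 1 week. The pair of Psmb9 with Psmb6 was not run. With 1 pool in each group, differences between rats had no measure.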
